A study of Saccharomyces cerevisiae with 10 samples.

Results

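Mitochondrial protein quality control was examined through the deletion strains of 10 genes: the precursor-processing peptidases OCT1 (YKL134C) and PCP1 (YGR101W) with the peptidase subunit SOM1 (YEL059C-A), the ATP-dependent proteases YME1 (YPR024W), AFG3 (YER017C), YTA12 (YMR089C) and PIM1 (YBL022C), the prohibitins PHB1 (YGR132C) and PHB2 (YGR231C), and the matrix Hsp40 chaperone MDJ1 (YFL016C). Strains were taken by the gene symbol of their spots. This gave 9 measured strains of 4625 in all, and the strain of SOM1 is not analysed here. A barcode array compares how common each strain is in a pair of pools by the unique tags, 2 a strain at most, that mark each deletion.

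The starting pool held 4831 viable haploid deletion strains of budding yeast, grown together in the rich medium YPD. Each array came from a culture of its own, split into a pair of portions. On the 4 acute over untreated arrays, 1 portion received 0.4 mM hydrogen peroxide for 1 h, labelled Cy5, and the other received none, labelled Cy3. On the 6 adapted over acute arrays, the Cy5 portion (adapted) was given a mild dose, 0.1 mM for 45 min, and after it the 0.4 mM dose for 1 h, while the Cy3 portion (acute) had the 0.4 mM dose for 1 h and no mild dose. Every portion was returned to YPD for 5 h before the genomic DNA was taken. A negative log ratio is read as meaning that a strain was scarcer in the more treated portion, relative to the median strain of the pool. No source states the overall direction of the deposited ratios or their log base. The direction was set from the ranking of strains by the study, and the ratios were read as natural logs. Death during the treatment and slow growth in the 5 h after it cannot be told apart, and since no array had its dyes exchanged, neither can dye and treatment. Whether a strain in the pool still held mitochondrial DNA was not measured.

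Most mitochondrial proteins are made in the cytosol and imported with a targeting sequence that peptidases remove. Inside, the chaperones of the Hsp70 system fold the new proteins, and ATP-dependent proteases of the matrix (Lon) and of the inner membrane (AAA proteases) degrade the misfolded ones and mature a few others. Prohibitins form rings in the inner membrane that bind the AAA protease facing the matrix. In budding yeast, loss of several of these factors impairs respiratory growth.

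The arrays of a comparison shared little of their strain-to-strain variation. The correlation between 2 arrays was taken over the strains with both tags. It ran from −0.09 to 0.50 among the acute over untreated arrays, highest for replicates 2 and 4. Among the adapted over acute arrays it ran from −0.26 to 0.59, highest for replicates 1 and 2. The first tags alone gave −0.438 to 0.705 and −0.663 to 0.705 in these comparisons, highest for the same replicates. The second tags alone gave −0.289 to 0.366 and −0.298 to 0.356. The correlation between the first and the second tag over strains was between −0.014 and 0.283 on single arrays. The median strain had an SD over arrays of 0.224 in the acute over untreated comparison and of 0.229 in the adapted over acute comparison. A strain is called lower or higher below where limma's unadjusted p was under 0.005, the threshold of the study's methods, and p-values adjusted over all 4625 strains by the Benjamini-Hochberg method are given beside it. All p-values of single strains are from limma.

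After the high dose alone, oct1Δ, yta12Δ and mdj1Δ were scarcer than in the untreated portion, and no strain of the 9 was called more common. In the acute over untreated comparison, 3 of the 9 strains were called lower, against 2.66% of all strains, and 0 were called higher, against 0.951%. At an unadjusted p under 0.05 the count was 6 of 9, against 12.6% of all strains. The mean lay below 0 for 8 of the 9 strains, against 54.7% of all strains, and 6 of the 9 lay below 0 on all 4 arrays (oct1Δ, pcp1Δ, afg3Δ, yta12Δ, pim1Δ and mdj1Δ), against 10.8%. The median of the 9 means was −0.672, and that of all strains was −0.014. Only oct1Δ passed an adjusted p of 0.05, as did 3 of all strains. The members were chosen with earlier results of these data known. Their counts in each comparison therefore describe these strains and are not a separate test.

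**Figure D1:**
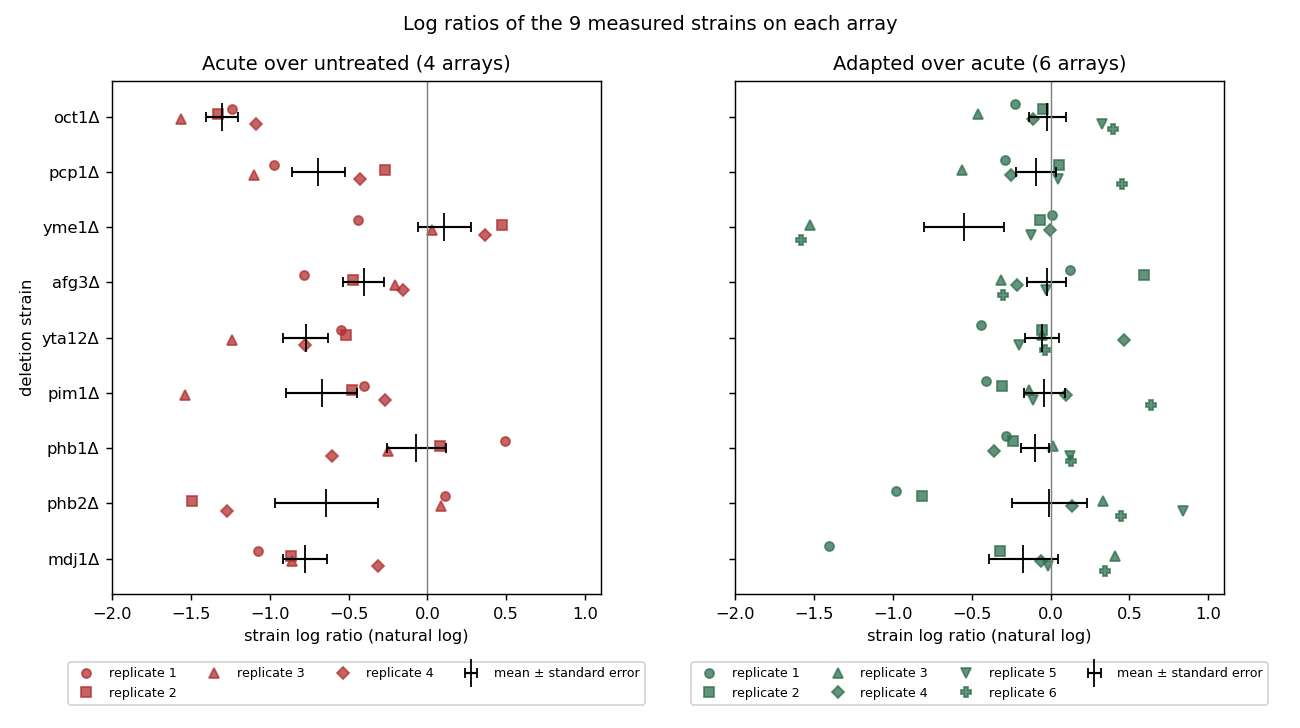
Log ratio (natural log, x axis) of each of the 9 measured strains (y axis) on each array, acute over untreated on the left (4 arrays) and adapted over acute on the right (6 arrays); symbols mark replicates and the black bar is the mean ± standard error. The oct1Δ points sit between −1.56 and −1.09 after the high dose and on both sides of 0 in the adapted over acute comparison.

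Among the processing peptidases, oct1Δ gave the lowest values. Oct1 is the matrix peptidase that trims an octapeptide from a subset of imported precursors after the main processing peptidase has cut them. On the acute over untreated arrays the log ratios of oct1Δ were −1.24, −1.33, −1.56 and −1.09 in replicates 1 to 4. The highest of them, −1.09, was below the mean of each of the other 8 strains. The mean was −1.30 ± 0.10 (SE, n = 4), with a 95% interval of −1.56 to −1.04, limma's unadjusted p = 2.88e-05 and adjusted p = 0.0444. It ranked 4 from the lowest of 4625 strains. Both tags showed it: the first tag averaged −1.28 ± 0.36 and the second −1.31 ± 0.33 (SD, n = 4), each below 0 on 4 of 4 arrays. Leaving out any 1 acute array gave means from −1.44 to −1.22, all past the threshold.

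Pcp1, the rhomboid protease of the inner membrane, cleaves Mgm1, the dynamin-like protein of inner membrane fusion, and Ccp1, cytochrome c peroxidase. The log ratios of pcp1Δ were −0.97, −0.27, −1.10 and −0.43 in acute replicates 1 to 4. They were below 0 on all 4 arrays, with replicates 1 and 3 well under replicates 2 and 4. The mean of −0.69 ± 0.17 (SE, n = 4) missed the threshold at unadjusted p = 0.00722 (adjusted p = 0.169). The first tag alone was steadier, at −0.87 ± 0.08 over the 4 arrays, than the second, at −0.39 ± 0.55 (SD), which was above 0 in replicate 2. With the first tags alone the mean was −1.03 and passed (unadjusted p = 0.00248), and with the second alone it was −0.44 and did not (unadjusted p = 0.0819). The mean difference of oct1Δ minus pcp1Δ on the same arrays was −0.61 ± 0.34 (SD), below 0 on 4 of 4 arrays. Its exact sign-flip test gave p = 0.125, the smallest that 4 arrays allow, and p = 0.5 adjusted over the 6 partner tests made.

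The strains of the ATP-dependent proteases were not all called lower. Yta12 and Afg3 form the m-AAA protease, whose active sites face the matrix. The log ratios of yta12Δ were −0.55, −0.52, −1.24 and −0.78 on acute arrays 1 to 4, and those of afg3Δ were −0.79, −0.47, −0.21 and −0.16. Both strains were below 0 on every acute array, and their ranges overlapped. The mean of yta12Δ was −0.77 ± 0.14 (SE, n = 4, unadjusted p = 0.00218, adjusted p = 0.0984). The mean of afg3Δ, −0.40 ± 0.13, did not pass (unadjusted p = 0.0229, adjusted p = 0.274). The difference of afg3Δ minus yta12Δ was 0.37 ± 0.57 (SD) with an exact sign-flip p = 0.375 and 0.562 after adjustment, so a difference between these partners was not detectable with 4 arrays. The yta12Δ call was lost without acute replicate 4 (mean −0.68, unadjusted p = 0.0116) and with the second tags alone (−0.67, unadjusted p = 0.00803). With the second tags alone afg3Δ passed at −0.62 (unadjusted p = 0.00363), while its first tag averaged −0.12 ± 0.27 (SD) and was below 0 on 2 of 4 arrays.

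Pim1 is the Lon protease of the matrix. The log ratios of pim1Δ were −0.40, −0.48, −1.54 and −0.27 in acute replicates 1 to 4, with replicate 3 far below the other three. The mean was −0.67 ± 0.23 (SE, unadjusted p = 0.0284, adjusted p = 0.309), and −0.41 without replicate 3. That value came from the first tag, at −2.42 in replicate 3 against 0.20, −0.95 and 0.51 in replicates 1, 2 and 4, while the second tag stood between −1.19 and −0.22 on all 4 arrays.

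Yme1, the catalytic subunit of the i-AAA protease whose active sites face the intermembrane space, gave the strain with the highest acute mean of the 9. The log ratios of yme1Δ were −0.44, 0.47, 0.03 and 0.37 in acute replicates 1 to 4, on both sides of 0. Its mean was 0.11 ± 0.17 (SE), with a 95% interval of −0.31 to 0.53 and unadjusted p = 0.55. That interval lay above the means of oct1Δ, pcp1Δ, afg3Δ, yta12Δ, pim1Δ, phb2Δ and mdj1Δ. The differences from these strains were not tested. On the acute arrays the tags of yme1Δ disagreed. In replicates 1 and 2 the first tag stood at −0.86 and 1.95, and the second at 0.30 and −0.59. The largest gap between them was 2.54, and 5.05% of strains had a larger one. With the first or the second tags alone the yme1Δ mean was 0.09 or 0.20, and neither passed.

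The prohibitin strains spread widely between the acute arrays, with an SD of 0.47 for phb1Δ and 0.86 for phb2Δ. The log ratios of phb1Δ were 0.49, 0.08, −0.25 and −0.61 in acute replicates 1 to 4, with a mean of −0.07 ± 0.19 (SE, unadjusted p = 0.717). Those of phb2Δ were 0.11, −1.49, 0.09 and −1.27, with a mean of −0.64 ± 0.33 (SE, unadjusted p = 0.101). The phb2Δ values fell apart into replicates 2 and 4, far below 0, and replicates 1 and 3, near 0. Replicates 2 and 4 are also the 2 acute arrays that correlated most over the strains with both tags, and over the first tags alone (0.705). Without replicates 2 and 4 the phb2Δ mean was 0.09, a description of a split chosen on these values. The low values were those of the first tag, which stood at −2.72 and −3.48 in replicates 2 and 4 and at 0.43 and 0.35 in replicates 1 and 3. The second tag was between −0.55 and −0.06 on all 4 arrays. The largest gap between the tags of phb2Δ on an acute array was 3.42, and 1.54% of strains had a larger one. Phb1 and Phb2 form rings together and neither is stable alone. The difference of phb1Δ minus phb2Δ was 0.57 ± 0.79 (SD) over the 4 acute arrays, with an exact sign-flip p = 0.25, or 0.5 after adjustment. Here too 0.125 was the smallest p possible, so the test could not decide.

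Mdj1 is the Hsp40 partner of the main matrix Hsp70 and assists its folding work and the turnover of misfolded proteins by Pim1. The log ratios of mdj1Δ were −1.08, −0.87, −0.86 and −0.31 in acute replicates 1 to 4, all below 0. The mean was −0.78 ± 0.14 (SE, n = 4, unadjusted p = 0.00198, adjusted p = 0.0984), and it ranked 49 from the lowest. Both tags were below 0 on 4 of 4 arrays, at −0.79 ± 0.38 for the first and −0.62 ± 0.24 for the second (SD). The call was lost when any 1 of acute replicates 1, 2 and 3 was left out, with means of −0.75, −0.71 and −0.80 and unadjusted p-values between 0.00804 and 0.0107. Without replicate 4 the mean was −0.81, which passed (unadjusted p = 0.000958).

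**Figure D2:**
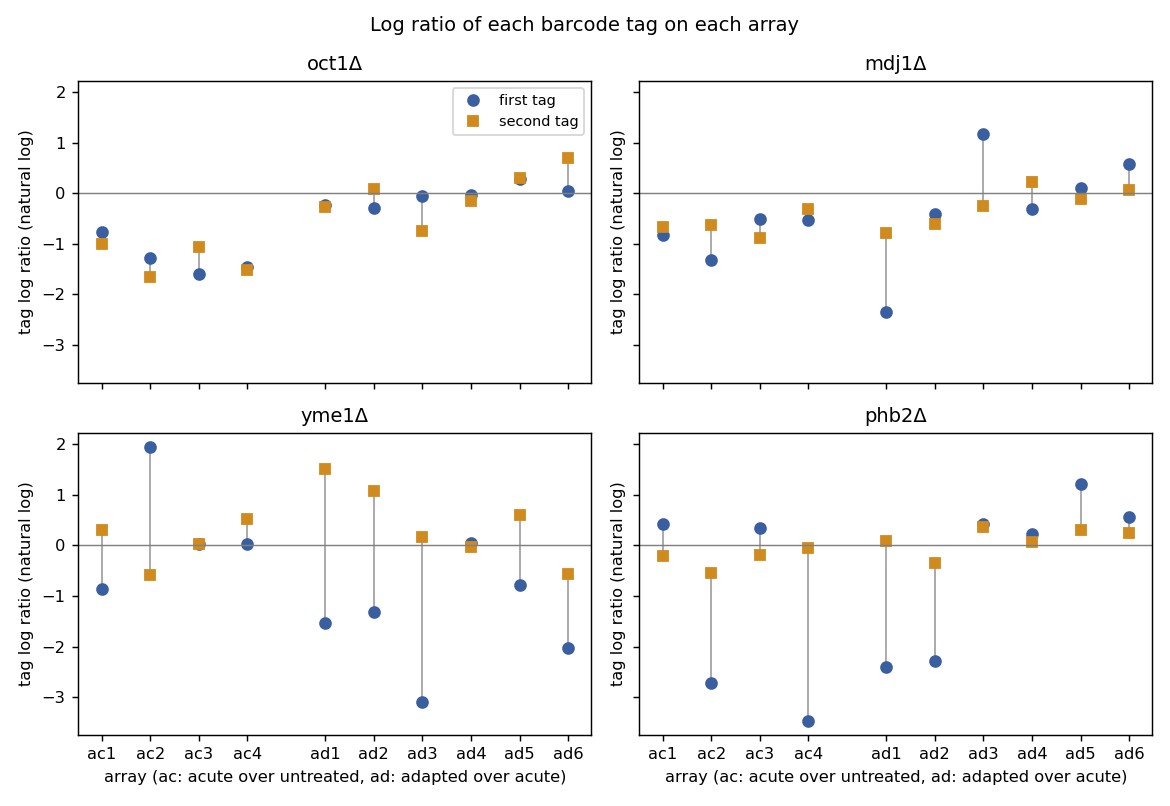
Log ratio (natural log, y axis) of the first tag (blue circle) and the second tag (orange square) on each array (x axis; ac, acute over untreated; ad, adapted over acute; grey lines join the tags of 1 array) for oct1Δ, mdj1Δ, yme1Δ and phb2Δ, before quantile normalization. Both oct1Δ tags lie below 0 on all 4 acute arrays, while the first tag of phb2Δ reaches −3.48 and that of yme1Δ −3.11 where the second stays near 0.

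When the mild dose came before the high dose, none of the 9 strains was called different from its standing after the high dose alone. This direct comparison is not the study's adaptive fitness test, which drew on both comparisons and is nearest to the sum given below. In the adapted over acute comparison, 0 of the 9 strains passed limma's unadjusted p under 0.005 in either direction, against 1.54% of all strains called lower and 1.25% called higher, and 0 passed p under 0.05, against 10.8% of all strains. With so few members, 0 is near these shares. With 1 spread shared by all strains the count was 1 (yme1Δ, lower), where 2.94% of all strains were called lower, and with no moderation of the spread it was 0, where 0.951% were called lower and 1.25% higher. None of the 9 strains kept 1 sign on all 6 arrays, against 3.91% of all strains below 0 on all 6 and 3.42% above 0. The means of all 9 were below 0, against 54.6% of all strains, and all but that of yme1Δ lay between −0.17 and −0.01. Their median was −0.054, and that of all strains was −0.013. The shared sign depended on the tag: with the first tags alone all 9 means were below 0. With the second tags alone yme1Δ, phb2Δ, yta12Δ, afg3Δ and pim1Δ had means above 0, at 0.43, 0.14, 0.11, 0.07 and 0.05. The second-tag means of oct1Δ, pcp1Δ, phb1Δ and mdj1Δ stayed below 0.

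For the strains called after the high dose, the 6 adapted over acute arrays lay around 0. The log ratio of oct1Δ had a lowest value of −0.46, a median of −0.08 and a highest value of 0.40, with a mean of −0.02 ± 0.12 (SE, n = 6) and a 95% interval of −0.29 to 0.25. In yta12Δ it ran from −0.44 to 0.46 with a median of −0.06 and a mean of −0.05 ± 0.11 (95% interval −0.31 to 0.20). In mdj1Δ it ran from −1.41 to 0.41 with a median of −0.04 and a mean of −0.17 ± 0.22 (95% interval −0.68 to 0.33). A loss or a recovery within these intervals was not detectable. In mdj1Δ the lowest value, adapted replicate 1, stood alone, and the mean without it was 0.08. It came mostly from the first tag, at −2.34, against −0.79 for the second.

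Of the other strains, yme1Δ had the lowest adapted over acute mean, at −0.55 ± 0.26 (SE, n = 6, unadjusted p = 0.064, adjusted p = 0.5), which ranked 28 from the lowest of 4625. Its lowest value was −1.58, its median −0.10 and its highest 0.01. Replicates 3 and 6, at −1.53 and −1.58, were far below the other 4, which stood between −0.12 and 0.01. The tags of yme1Δ disagreed: the first stood at −1.53, −1.33, −3.11, 0.04, −0.79 and −2.04 in replicates 1 to 6, the second at 1.52, 1.09, 0.17, −0.02, 0.60 and −0.56. The largest gap between its tags was 3.28, and 0.6% of strains had a larger one. With the first tags alone the mean was −1.35 and passed (unadjusted p = 0.00486), and with the second alone it was 0.43 (unadjusted p = 0.132), so the direction of yme1Δ depended on the tag.

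The remaining 5 strains gave means near 0. The log ratio of pcp1Δ ran from −0.56 to 0.45 with a median of −0.10 and a mean of −0.09 ± 0.13 (SE, n = 6). In afg3Δ it ran from −0.32 to 0.59, median −0.12, mean −0.02 ± 0.12. In pim1Δ it ran from −0.41 to 0.64, median −0.12, mean −0.04 ± 0.13. All 3 strains lay on both sides of 0. In phb1Δ the log ratio ran from −0.36 to 0.13, median −0.11, mean −0.10 ± 0.09, the narrowest spread of the 9. In phb2Δ it ran from −0.98 to 0.84, median 0.23, mean −0.01 ± 0.24. Again the phb2Δ values split, with replicates 1 and 2 at −0.98 and −0.82 and the other 4 between 0.14 and 0.84. Adapted replicates 1 and 2 are the 2 arrays that correlated most over the strains with both tags, and over the first tags alone (0.705). The first tag of phb2Δ stood at −2.42 and −2.29 on these arrays. Without them the phb2Δ mean was 0.46, again a description. On the same 6 arrays the partner differences were 0.03 ± 0.52 for afg3Δ minus yta12Δ, −0.09 ± 0.59 for phb1Δ minus phb2Δ and 0.07 ± 0.14 for oct1Δ minus pcp1Δ (SD), with exact sign-flip p = 0.906, 0.688 and 0.25.

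**Figure D3:**
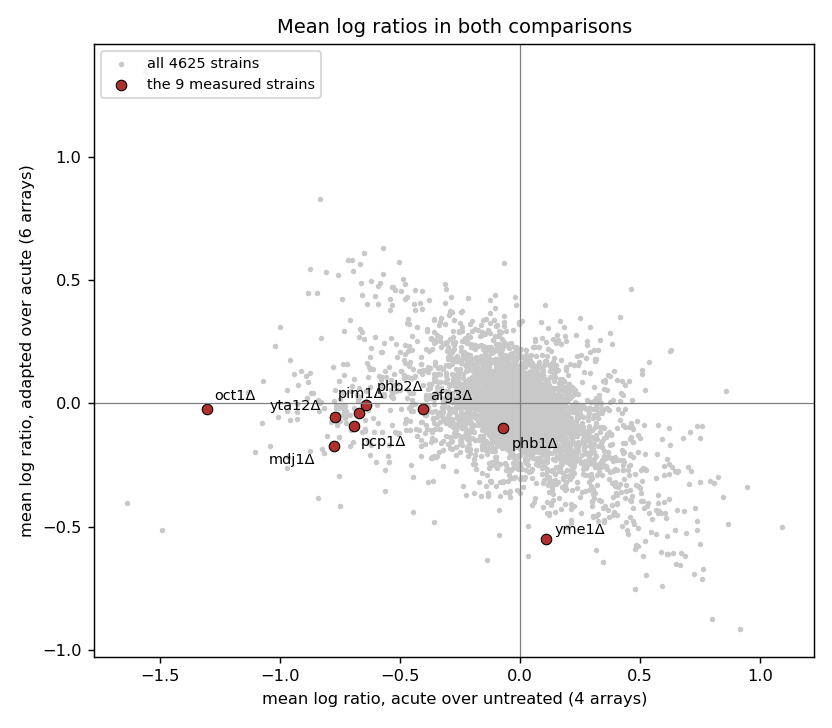
Mean log ratio over the 4 acute over untreated arrays (x axis) and over the 6 adapted over acute arrays (y axis), both natural log, for all 4625 strains (grey) and the 9 measured strains (red). The oct1Δ point lies at −1.30 and −0.02, and yme1Δ stands apart at 0.11 and −0.55.

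The pools of both comparisons can be joined through the acute portion. The sum of the 2 mean log ratios gives adapted over untreated, the cost to a strain of the high dose when the mild dose came first. It holds the acute over untreated arrays, so it is not separate from the first comparison. By this sum 3 of the 9 strains were called lower (oct1Δ, pcp1Δ and yta12Δ), against 1.54% of all strains, and 0 higher, against 0.173%. At an unadjusted p under 0.05 the count was 6 of 9, against 5.54% of all strains. All 9 sums were below 0, against 56.8% of all strains. The median of the 9 sums was −0.711, against −0.024 for all strains. The sum for oct1Δ was −1.32 ± 0.17 (SE), with a 95% interval of −1.71 to −0.94, unadjusted p = 1.1e-05 and adjusted p = 0.0115, 1 of 16 strains under an adjusted p of 0.05. It ranked 3 from the lowest of 4625.

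The sum for yta12Δ was −0.83 ± 0.19 (unadjusted p = 0.00101, adjusted p = 0.134). It no longer passed without acute replicate 4 (−0.73, unadjusted p = 0.00507) or with the second tags alone (−0.57, unadjusted p = 0.05). The sum for pcp1Δ was −0.78 ± 0.22 (unadjusted p = 0.00429, adjusted p = 0.258). The pcp1Δ call was lost when any 1 of acute replicates 1, 3 and 4 or adapted replicates 1 to 5 was left out, with sums of −0.75, −0.69 and −0.78 for the 3 acute arrays and from −0.82 to −0.70 for the 5 adapted arrays. Nor did the pcp1Δ sum pass with the second tags alone (−0.51, unadjusted p = 0.0491) or with no moderation of the spread (unadjusted p = 0.0116). The sum for mdj1Δ, −0.95 ± 0.32, was the lowest after oct1Δ and did not pass (unadjusted p = 0.0121). For pim1Δ, phb2Δ, yme1Δ, afg3Δ and phb1Δ the sums were −0.71 ± 0.27, −0.65 ± 0.44, −0.44 ± 0.37, −0.43 ± 0.19 and −0.17 ± 0.20 (SE), with unadjusted p from 0.0218 to 0.403.

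**Figure D4:**
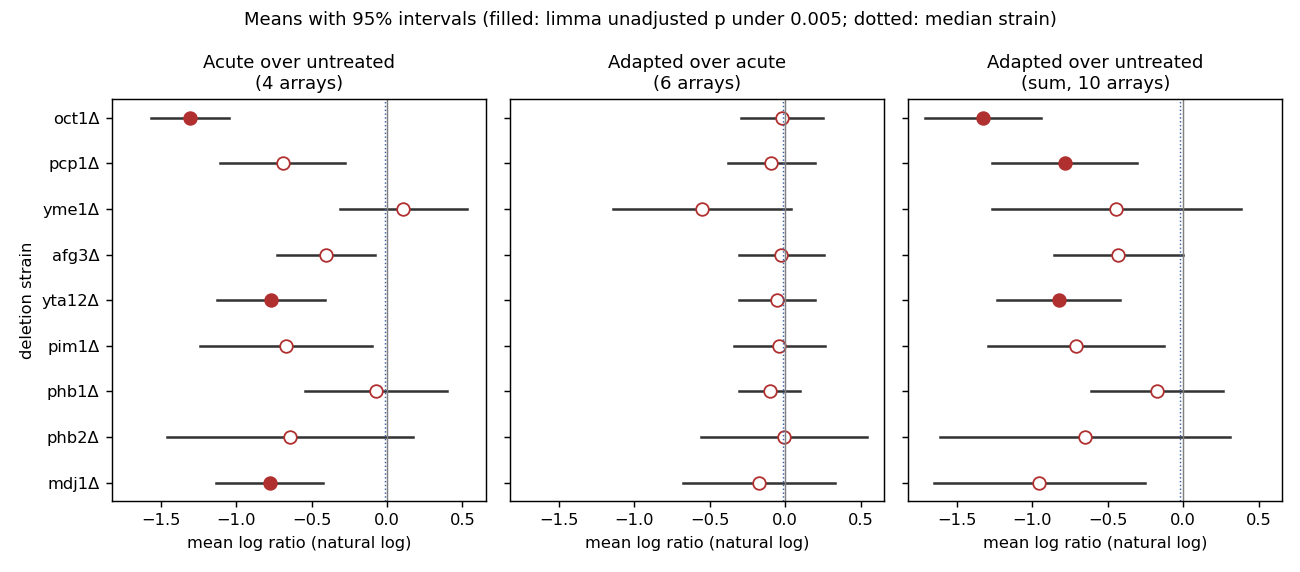
Mean log ratio (natural log, x axis) with its 95% interval (bar) for the 9 measured strains (y axis) in acute over untreated (4 arrays), adapted over acute (6 arrays) and their sum, adapted over untreated (10 arrays); filled points have limma's unadjusted p under 0.005 and the dotted line is the median strain. The intervals of oct1Δ end at −1.04 in acute over untreated and at −0.94 in the sum, and that of adapted over acute spans 0 for every strain.

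The wider machinery was read from 27 related genes, of which 25 were measured (not COX4 and CYB2). In acute over untreated, 5 of the 25 strains were called lower, against 2.66% of all strains, and 0 higher, against 0.951%. Their median was −0.193, against −0.014 for all strains. These genes too were chosen with earlier results of these data known, so their counts describe the lists and are not a separate test. Of 10 further peptidases, adaptors and AAA proteins, 2 were called lower: imp2Δ, which lacks a catalytic subunit of the inner membrane peptidase, at −0.74 ± 0.11 (SE, unadjusted p = 0.000709), and atp23Δ, which lacks a metalloprotease that matures an ATP synthase subunit, at −0.46 ± 0.10 (unadjusted p = 0.00404). The other catalytic subunit of that peptidase gave −0.41 ± 0.14 in imp1Δ (unadjusted p = 0.029). The highest of this list was mgr1Δ, at 0.15 ± 0.10 (unadjusted p = 0.191). Mgr1 and Mgr3 are adaptors of the i-AAA protease, and mgr3Δ stood at −0.12 ± 0.13 (unadjusted p = 0.408). Of 6 other matrix chaperones and import factors, 0 passed. Their lowest was ssq1Δ, lacking the Hsp70 of iron-sulfur cluster assembly, at −0.84 ± 0.33 (unadjusted p = 0.0472), and their highest ecm10Δ, lacking a minor matrix Hsp70, at 0.15 ± 0.09 (unadjusted p = 0.159).

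Of 9 measured genes whose products these proteases and peptidases process or degrade, 3 were called lower, against 2.66% of all strains, with a list median of −0.461, against −0.014. The strain mgm1Δ gave −1.53, −0.64, −1.53 and −0.60 in acute replicates 1 to 4, with a mean of −1.07 ± 0.21 (SE, unadjusted p = 0.0027), rank 8 from the lowest. Like pcp1Δ, it was lower in replicates 1 and 3 than in replicates 2 and 4. Ccp1 is the other Pcp1 substrate, and ccp1Δ, at −0.46 ± 0.23, did not pass (unadjusted p = 0.0965). The mitochondrial ribosomal protein Mrpl32 is matured by the m-AAA protease, and mrpl32Δ stood at −0.66 ± 0.13 (unadjusted p = 0.0026). The lipid transfer protein Ups1 is degraded by Yme1, and ups1Δ stood at −0.54 ± 0.09 (unadjusted p = 0.0017). The highest value of the list was that of gut2Δ, lacking the mitochondrial glycerol-3-phosphate dehydrogenase, at 0.17 ± 0.26 (unadjusted p = 0.53). None of the 25 strains passed an adjusted p of 0.05 in this comparison. The count of 5 was 1 without acute replicate 1, 2 without replicate 3 and 2 without replicate 4, with imp2Δ called in each of these. The strain imp2Δ had values from the first tag only, so its call could not be compared between tags. The mgm1Δ call was lost without replicate 1 (−1.01) or 3 (−0.97), that of mrpl32Δ without replicate 1 (−0.75) or 4 (−0.61), that of ups1Δ without replicate 1, 3 or 4 (−0.55, −0.53 and −0.52), and that of atp23Δ without any 1 of the 4 (from −0.57 to −0.42).

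**Figure D5:**
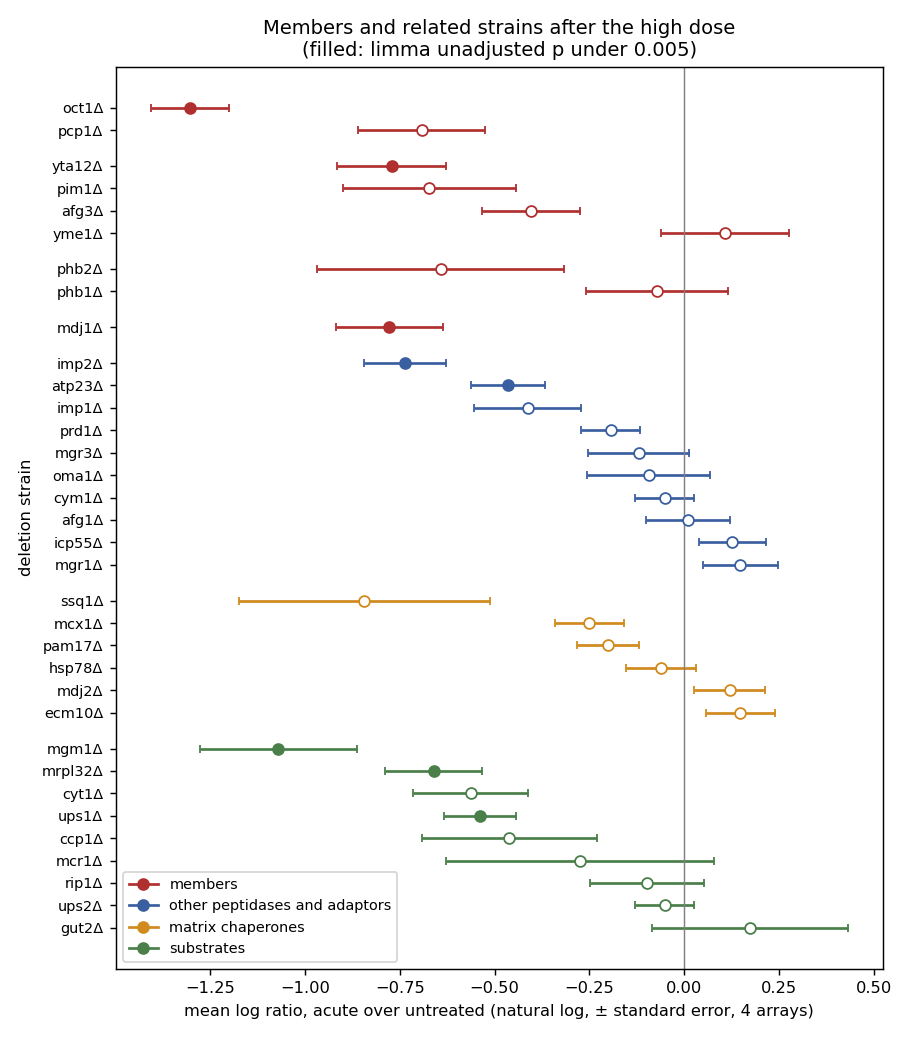
Mean log ratio ± standard error over the 4 acute over untreated arrays (natural log, x axis) for the 9 measured strains and 25 related strains (y axis), grouped by role; filled points have limma's unadjusted p under 0.005. The lowest of the related strains is mgm1Δ, at −1.07, and every filled point lies below 0.

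In adapted over acute, 2 of the 25 related strains were called lower, against 1.54% of all strains, and 0 higher, against 1.25%, with a list median of −0.031, against −0.013 for all strains. Each lacks a subunit of the cytochrome bc1 complex: cyt1Δ (cytochrome c1, matured by Imp2) at −0.36 ± 0.07 (SE, n = 6, unadjusted p = 0.0013, adjusted p = 0.113) and rip1Δ (the Rieske iron-sulfur protein, an Oct1 substrate) at −0.26 ± 0.06 (unadjusted p = 0.0037, adjusted p = 0.16). Each was below 0 on 6 of 6 arrays, from −0.57 to −0.18 in cyt1Δ and from −0.39 to −0.07 in rip1Δ. In the first comparison cyt1Δ stood at −0.56 ± 0.15 (unadjusted p = 0.0115) and rip1Δ at −0.10 ± 0.15 (unadjusted p = 0.542). The strain ups1Δ was above 0 on 6 of 6 arrays, at 0.26 ± 0.08, and did not pass (unadjusted p = 0.0136). The count of 2 was 0 without adapted replicate 5, where cyt1Δ stood at −0.35 (unadjusted p = 0.00511) and rip1Δ at −0.28, and 1 (cyt1Δ) without any 1 of replicates 1, 2, 3 and 6.

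By the sum, adapted over untreated, 5 of the 25 related strains were called lower, against 1.54% of all strains, and 0 higher, against 0.173%, with a median of −0.246, against −0.024 for all strains. The strain cyt1Δ, at −0.92 ± 0.16 (SE, unadjusted p = 0.000116, adjusted p = 0.0383), was the only one of them under an adjusted p of 0.05. The others were mgm1Δ at −0.98 ± 0.26, mrpl32Δ at −0.78 ± 0.20, imp2Δ at −0.62 ± 0.14 and imp1Δ at −0.59 ± 0.16. The count of 5 was between 2 and 5 when any 1 array was left out, with cyt1Δ and imp2Δ called each time. The imp2Δ sum rests on the first tag only. It was 2 without acute replicate 3 or adapted replicate 1, and 3 without acute replicate 1 or adapted replicates 2, 3 or 5.

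A deletion can touch the gene beside it, so the strains of the chromosomal neighbours were read as well. No measured neighbour overlaps a member gene in the RefSeq annotation. Beside PCP1 lies GTF1, which encodes a subunit of the enzyme that makes mitochondrial glutaminyl-tRNA, and gtf1Δ was called lower in acute over untreated at −0.77 ± 0.12 (SE, n = 4, unadjusted p = 0.000834, adjusted p = 0.0804) and in the sum at −0.77 ± 0.15 (unadjusted p = 0.00041). Beside PIM1 lies HAP3, a subunit of the transcription factor that activates respiratory genes. The strain hap3Δ was called higher in adapted over acute at 0.50 ± 0.08 (SE, n = 6, unadjusted p = 0.000201, adjusted p = 0.0761) and stood at −0.62 ± 0.15 in acute over untreated (unadjusted p = 0.00832), while pim1Δ had −0.04 and −0.67 in these comparisons. These 3 calls of gtf1Δ and hap3Δ held when any 1 array was left out. The other neighbour strains measured passed in none of the 3 comparisons, those beside OCT1, YTA12 and the prohibitin genes included. Beside OCT1, rci50Δ stood at −0.35 ± 0.11 in acute over untreated (unadjusted p = 0.019) and apl2Δ at 0.15 ± 0.12 (unadjusted p = 0.239). Neither neighbour of MDJ1 was measured, so mdj1Δ could not be checked in this way.

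For the 3 strains called after the high dose, the strains with the most similar values over all 10 arrays were taken by the root mean square difference in log ratio among 4146 named strains. This is a description of these arrays, which all strains share. For oct1Δ they were qcr7Δ (a cytochrome bc1 subunit, difference 0.24), mrpl20Δ (a mitochondrial ribosomal protein, 0.282) and mst1Δ (a mitochondrial threonyl-tRNA synthetase, 0.295), against 0.897 for the median strain. For yta12Δ they were rrf1Δ (a mitochondrial ribosome recycling factor, 0.226), mrpl32Δ (0.228) and ppa2Δ (the mitochondrial pyrophosphatase, 0.234), against a median of 0.616. For mdj1Δ they were rmd9Δ (a factor for mitochondrial mRNAs, 0.401), mrpl17Δ (a mitochondrial ribosomal protein, 0.409) and pkh2Δ (a cytosolic protein kinase, 0.413), against a median of 0.758. The nearest strain to mdj1Δ was thus farther from it than the nearest strain was from oct1Δ or yta12Δ. Low values on the acute arrays alone can bring strains together by this measure. The acute over untreated means of qcr7Δ, mrpl20Δ and mst1Δ were −1.13, −0.93 and −0.96. Whether the strains share more than that was not tested.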

How the data were processed

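Log ratios per spot, on a natural log scale, were deposited by the authors after median and loess correction with the hoptag package; no source names the log base, which is read here as natural, so no folds are given. Spot intensities were not used, so the signal behind a ratio is unknown and precision is limited by the number of arrays. Of 22575 spots, 16850 held a value on all 10 arrays. The sign of spots above 5400 was turned: before it, 3415 copies of a first-set spot were opposite in sign to the original (tolerance 1e-09), and after it 345 were equal, as were 3675 in the second set. By the labels, Cy5 is the more treated portion. The overall direction of the ratios is not stated; it was set so that strain means rank as the p-values in the study's supplement do, and has no separate check. No source says which set is UPTAG.

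Replicate spots and then both tags were averaged per strain (4625 strains, 4147 of them named; 4492 with both tags), and quantile normalization was run over the arrays of a comparison, as in the study's methods; tag values are given before this step, so they do not average to the strain values. limma 3.58.1 in R 4.3.3 (lmFit, eBayes) tested each mean against 0, two-sided, over all strains, at an unadjusted p of 0.005, and the sum of both means over all 10 arrays. Partner strains were compared by exact two-sided sign-flip tests with Benjamini-Hochberg adjustment over 6 tests. The fits of the single comparisons were also run on simulated log ratios with noise independent between arrays. Some of the real arrays correlated, so that run gives no rate of false calls for these data. Replicates were separate cultures of 1 pool. Figures were drawn with matplotlib 3.10.9 under Python 3.11.15.

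The text names all members, related strains past the threshold or at the ends of their list, neighbours past the threshold, and the 3 strains most like each member called in acute or adapted over acute; mgr3Δ, imp1Δ and ccp1Δ values beyond this rule were chosen after they were seen. The members and gene lists were chosen with earlier results of these data known. Alternatives were median centring, each tag set alone, 1 shared spread, no moderation, main spots alone, leaving out each array and a replicate block; leaving out pairs of correlated arrays was added after seeing the data. Sequences of the tags and proteins were not used here. Genome coordinates are not printed, since the files name no build.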

Additional observations from a re-analysis of the deposited data

Results flagged for a closer look

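The acute over untreated value of pim1Δ in replicate 3, −1.54, stood far from the other 3 arrays, which lay between −0.48 and −0.27. The gap to the nearest of them was 0.833 of the whole range of the 4 values, above Dixon's 95% critical value of 0.829. In all 18 sets of values were examined in this way (9 strains in 2 comparisons), and chance gives about 1 such set in 20. Without that array the mean of pim1Δ was −0.41 and its limma unadjusted p was 0.0136.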

How the results depend on the processing

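Of 378 values of the 9 strains under alternatives, 337 kept their side of the threshold, among them all 42 of oct1Δ, 25 lost a call and 16 gained one. The sign changed in 31, none of them called in either setting, and 22 of these were in adapted over acute (4 of the 31 were of oct1Δ). With 1 spread shared by all strains the count of strains called was 6 in acute over untreated, 1 (yme1Δ) in adapted over acute and 6 in adapted over untreated, in place of 3, 0 and 3, all lower, while the share of all strains called lower was 3.96%, 2.94% and 2.51%, in place of 2.66%, 1.54% and 1.54%. With no moderation it was 1 (oct1Δ) in acute over untreated, where 1.06% of all strains were called lower, and with the first tags alone 1 (yme1Δ) in adapted over acute, where 0.692% were. Leaving out each array in turn gave 2 in every case for acute over untreated (66 to 86 of all strains called lower, in place of 123), 0 in every case for adapted over acute (36 to 65, in place of 71), and 1 to 3 for adapted over untreated (49 to 74, in place of 71), lowest without acute replicate 4 (oct1Δ alone). Using main spots alone could change nothing, since replicate spots were copies of them, and is not counted. The count of related strains was lowest at 0 with no moderation in acute over untreated (in place of 5), at 0 with either tag set alone or without replicate 5 in adapted over acute (in place of 2), and at 1 with the first tags alone in adapted over untreated (in place of 5). The cause of these changes was not tested. The deviations of same-numbered acute and adapted arrays from their group means correlated at −0.339, 0.265, −0.170 and −0.236 for numbers 1 to 4. Whether the numbers pair the cultures cannot be told from these values, since arrays of 1 comparison also correlated weakly. Over strain means, the median correlation was 0.071 among acute and 0.046 among adapted arrays. With the replicate number as a block the adapted over untreated count was 3, the same 3 strains, and oct1Δ stood at −1.35.

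With 4 and 6 arrays and tags that correlate weakly, calls near the threshold depend on single arrays. The direction of the ratios rests on the study's own ordering, the log base is not given, and dye and treatment cannot be told apart. Signal over background was not used here.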
